A study of Mus musculus with 25 samples.

Results

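Genes that lung fibroblasts use to call in or hold other cells are described here: the chemokines Ccl2, Ccl7, Ccl8, Ccl11, Ccl19, Cxcl1, Cxcl5, Cxcl12, Cxcl13 and Cxcl14. They were taken by name, with earlier results of these data known, and are 10 of the 47729 genes in the bulk table. The same 10 names were looked up among the 31053 features of the single-cell matrices. Bulk RNA-seq covered Lin- lung cells, from which CD45, CD31 and CD326 positive cells had been removed by FACS and which are labelled as primary lung fibroblasts, in 5 groups of 4 libraries. Single-cell RNA-seq covered the same 5 conditions with 1 library each, made from a pool of mice. By the single-cell levels given below, 5 of the members were highest in Col14a1 fibroblast-like cells or in an unnamed cluster led by Saa3 and Lcn2, and 5 elsewhere, although for Ccl2 and Cxcl5 the highest place rested on 1 cell and on 6 UMIs.

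All mice carried Col1-CreERT2, a tamoxifen-activated Cre recombinase under the Col1a1 promoter, together with floxed Fas alleles (Fas fl/fl). The naive group received no bleomycin, a drug that injures the lung epithelium and is followed by fibrosis. The other groups received bleomycin and were sampled at week 3 or week 6. Those called Fas-/- had been given tamoxifen after the injury and those called Fas+/+ corn oil, so the loss of Fas, which encodes a death receptor, and tamoxifen itself cannot be told apart. Deletion is limited to cells in which the Col1a1 promoter is active. The ages of the mice are not given in the sources used here. The study's methods describe its replicates as individual animals, so the p-values below are read as measuring the spread between mice.

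Chemokines are small secreted proteins that bind G protein-coupled receptors and steer the migration of leukocytes. The inflammatory members are switched on in stromal cells by cytokines such as interleukin-1 and tumour necrosis factor, largely through NF-kB. Among them Ccl2 and Ccl7 draw monocytes, Ccl11 (eotaxin) draws eosinophils, and Cxcl1 and Cxcl5 draw neutrophils through Cxcr2. The homeostatic members are made without an inflammatory stimulus. Cxcl12 holds progenitors and leukocytes through Cxcr4 and is scavenged by Ackr3. Cxcl13 draws B cells through Cxcr5, and Ccl19 draws T cells and dendritic cells through Ccr7. Cxcl14 is made by many resting epithelia and fibroblasts, and its receptor is not settled.

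In GRCm38 the members fall into a few clusters. Ccl2 (ENSMUSG00000035385, chr11:82035571-82037453), Ccl7 (ENSMUSG00000035373, chr11:82045712-82047525), Ccl11 (ENSMUSG00000020676, chr11:82057823-82062955) and Ccl8 (ENSMUSG00000009185, chr11:82115185-82116799) lie on the forward strand of one CC chemokine cluster, in that order, with Ccl12 between Ccl11 and Ccl8. Cxcl5 (ENSMUSG00000029371, chr5:90759360-90761624), Cxcl1 (ENSMUSG00000029380, chr5:90891241-90893115) and Cxcl13 (ENSMUSG00000023078, chr5:95956951-95961068) share the forward strand of another chromosome. Cxcl12 (ENSMUSG00000061353, chr6:117168535-117181367, forward), Cxcl14 (ENSMUSG00000021508, chr13:56288643-56296551, reverse) and Ccl19 (ENSMUSG00000071005, chr4:42754525-42756577, reverse) stand alone among the members.

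RefSeq (GRCm38.p6) gave a promoter window for 6 of the 10 members, each running from 250 bases before to 50 bases after the start of the gene. The windows of 3 members are shown because the members differed in the bulk data: Cxcl1 rose after bleomycin and moved with Ccl2 and Ccl7, Cxcl12 was above the naive range in every bleomycin library, and Cxcl13 was called in no comparison. The windows were searched on both strands for the NF-kB consensus (held by 4.51% of the 32851 windows in the table), the core promoter motif TATAAA (13.6%), the AP-1 site TGANTCA (7.81%) and an interferon-response type motif (3.44%). Capitals mark the matches.
Cxcl1 (chr5:90890995-90891294, forward strand): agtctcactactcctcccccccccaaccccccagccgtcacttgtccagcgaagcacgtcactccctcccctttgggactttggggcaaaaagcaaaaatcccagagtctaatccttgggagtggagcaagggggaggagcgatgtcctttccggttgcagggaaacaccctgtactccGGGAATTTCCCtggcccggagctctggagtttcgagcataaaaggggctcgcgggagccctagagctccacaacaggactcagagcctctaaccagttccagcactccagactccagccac
Cxcl12 (chr6:117168285-117168584, forward strand): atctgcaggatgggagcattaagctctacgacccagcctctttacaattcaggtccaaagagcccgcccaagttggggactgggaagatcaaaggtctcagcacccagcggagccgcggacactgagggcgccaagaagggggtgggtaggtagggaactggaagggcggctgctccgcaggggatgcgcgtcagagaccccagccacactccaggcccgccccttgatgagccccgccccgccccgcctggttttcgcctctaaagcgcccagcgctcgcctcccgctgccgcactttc
Cxcl13 (chr5:95956689-95956988, forward strand): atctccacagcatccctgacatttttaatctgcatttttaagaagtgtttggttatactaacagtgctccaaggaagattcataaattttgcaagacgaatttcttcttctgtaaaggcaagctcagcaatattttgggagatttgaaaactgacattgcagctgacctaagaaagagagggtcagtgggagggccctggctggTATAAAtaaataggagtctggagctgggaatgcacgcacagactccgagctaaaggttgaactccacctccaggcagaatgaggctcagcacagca
The Cxcl1 window held the NF-kB consensus in 2 overlapping matches, from position -71 on the forward and -70 on the reverse strand, counted back from the start of the gene. In the Cxcl12 window none of the 4 motifs was found. The Cxcl13 window held TATAAA from position -46, as did that of Ccl8 from position -32. The windows of Ccl19 and Cxcl14 each held the interferon-response type motif, from positions -208 and -172. These are matches of letters only.

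The bulk libraries held total counts of 11819700 to 25189096 (median 20122870), and 15773 genes had enough counts to be tested. Fas, the targeted gene, was at 21.1 to 23.9 CPM (counts scaled per megaread of the library size after TMM normalization) in naive libraries. It was at 33.97 to 57.7 CPM in Fas+/+ and 34.4 to 64.9 CPM in Fas-/- libraries at week 3, and at 26.2 to 39.7 and 35.6 to 46.6 CPM at week 6. Its counts did not differ by genotype at either time past the threshold (log2 fold change 0.11, adjusted p = 0.91, and 0.36, adjusted p = 0.719; edgeR), but whole-gene counts do not separate the deleted exon and so do not check the deletion. The paper reports that fewer single cells expressed the deleted exon in Fas-/- mice at both weeks. Some cells still expressed it, and the reduction was smaller at week 6. The sort was not complete. Endothelial markers (12 genes, none at 0 in any group) summed to 204 to 545 CPM in naive libraries and reached 12397 CPM in week 3 Fas+/+ replicate 1 and 11026 CPM in week 3 Fas-/- replicate 4. Fibroblast markers (10 genes) summed to 13300 to 46057 CPM over all libraries. Red cell and platelet markers (10 genes) summed to 2985 to 9593 CPM in naive libraries. They summed to 39.8 to 109 and 30.5 to 40.4 CPM in Fas+/+ and Fas-/- libraries at week 3, and to 107 to 286 and 27.1 to 67.4 CPM at week 6. The part of this difference in the comparisons with naive libraries was not tested.

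Before division by length, Cxcl12 had the highest mean of the members over the 20 libraries (448 CPM), followed by Cxcl14 (330 CPM). Divided by the length of all exons of a gene joined, Cxcl14 was the highest member at a mean of 180 CPM per kb. This length can exceed that of a single transcript. Cxcl12 followed at 54.8, Cxcl13 at 29.3, Ccl11 at 29.1 and Ccl2 at 14.0 CPM per kb. Ccl7 and Cxcl1 were both at 11.4 and Ccl8 at 8.59 CPM per kb. Cxcl5 (0.625 CPM per kb) and Ccl19 (0.108 CPM per kb) were near the limit of detection. Of the 10 members 9 were tested; Ccl19 had 0 to 6 counts per library and was not.

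**Figure D1:**
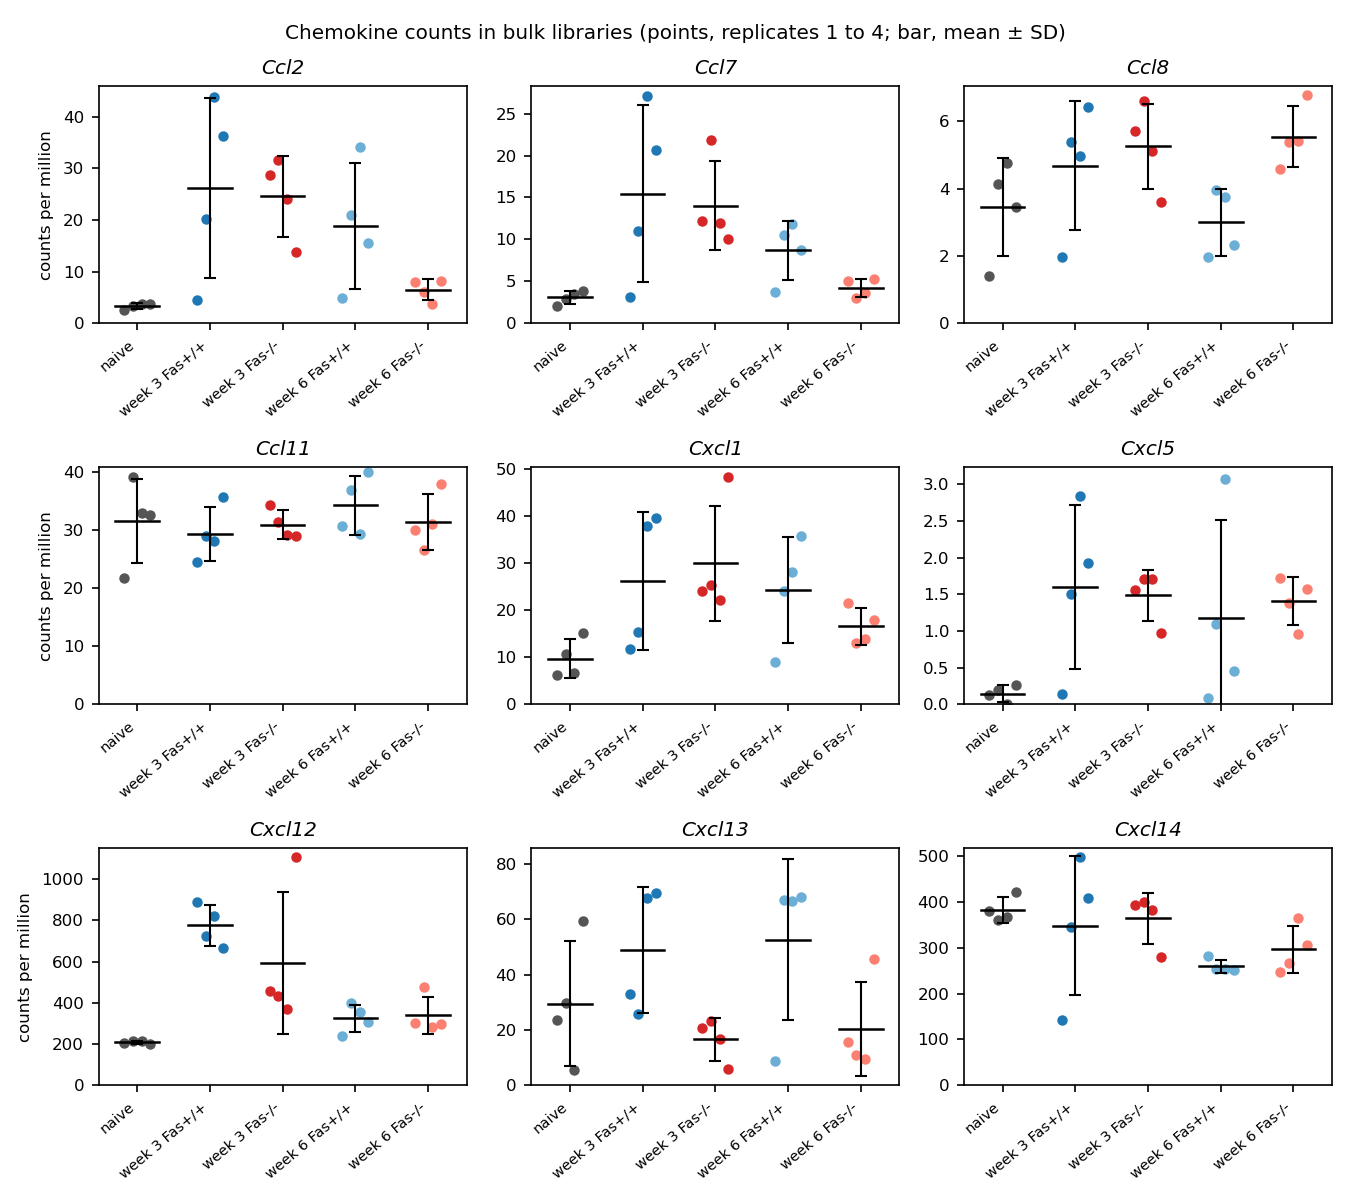
CPM of each of the 9 tested chemokines (vertical axes, linear from 0; Ccl19 is not drawn) in the 5 groups of 4 bulk libraries (horizontal axes), with a point for each library and a bar for the mean ± SD. Ccl2 sits at 2.63 to 3.85 CPM in naive libraries and at up to 43.9 CPM after bleomycin, while Ccl11 stays between 21.7 and 39.9 CPM in all groups.

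Week 3 after bleomycin was compared with the naive lung to ask which members were high in the injured lung. In Fas+/+ libraries 5 of the 9 tested members rose (Ccl2, Ccl7, Cxcl1, Cxcl5 and Cxcl12) and none fell, where 22.1% of all tested genes were called higher and 19.2% lower. The median log2 fold change of the members was 1.42 and that of all tested genes 0.01. In Fas-/- libraries the same 5 members rose and none fell, where 17.2% of all genes were called higher and 14.8% lower, with a member median of 1.502 against 0.02. Both comparisons share the naive libraries. The members were chosen with earlier results of these data known, so setting them beside all genes is description and not a test of the list. Cxcl5, with 0 to 6 counts in naive libraries, had enough counts to be tested only through bleomycin libraries. It could thus hardly be called lower against naive, here or at week 6. Here and below, a gene is called at an adjusted p of 0.05 or less (edgeR quasi-likelihood test over all 20 libraries, Benjamini-Hochberg over all tested genes). In these sorted bulk samples, more cells of a type and more RNA per cell cannot be told apart.

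Ccl2, the main ligand of Ccr2 on monocytes, was at 2.63, 3.35, 3.68 and 3.85 CPM in the naive libraries. It was at 4.56, 20.2, 43.9 and 36.2 CPM in week 3 Fas+/+ libraries and at 28.7, 31.7, 23.99 and 13.9 CPM in week 3 Fas-/- libraries. Every library of either group was above every naive library, although week 3 Fas+/+ replicate 1 was close to them. The log2 fold change was 2.95 (SE 0.58, adjusted p = 0.000744), or 7.71-fold, in Fas+/+ and 2.86 (SE 0.58, adjusted p = 0.00144), or 7.27-fold, in Fas-/- libraries. The exact permutation test gave p = 0.0286 for both, the smallest that 4 against 4 libraries allow. Week 3 Fas+/+ replicate 1 also had the lowest sum of fibroblast markers of all libraries (13300 CPM, against 37314 to 46057 CPM in the other 3 of its group), and across deviations from group means Ccl2 had a Pearson r of 0.748 with that sum. The part of this in the Ccl2 values was not tested.

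Ccl7, a neighbouring gene whose product draws monocytes through the same receptor and others, followed Ccl2. It was at 2.11, 2.92, 3.53 and 3.85 CPM in naive libraries, at 3.09, 11.1, 27.0 and 20.7 CPM in week 3 Fas+/+ libraries and at 12.2, 21.8, 11.9 and 10.1 CPM in week 3 Fas-/- libraries. Replicate 1 of the Fas+/+ libraries lay among the naive values, and the Fas-/- libraries all lay above them. The log2 fold change was 2.30 (SE 0.49, adjusted p = 0.00138; exact permutation p = 0.0857) in Fas+/+ and 2.18 (SE 0.49, adjusted p = 0.00307; exact permutation p = 0.0286) in Fas-/- libraries. Ccl2 and Ccl7 had the closest pattern of all member pairs, with a Pearson r of 0.968 over the 20 libraries and 0.936 for their deviations from the group means. These libraries share depth and composition, so the values describe the data and carry no p.

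Ccl8 and Ccl11, the other CC members of the same gene cluster, did not pass the test at week 3. Ccl8 was at 1.42, 4.15, 4.78 and 3.46 CPM in naive, 1.96, 5.40, 4.96 and 6.44 CPM in week 3 Fas+/+ and 5.70, 6.61, 5.11 and 3.62 CPM in week 3 Fas-/- libraries. The 3 groups overlapped, with log2 fold changes of 0.44 (adjusted p = 0.34) and 0.61 (adjusted p = 0.199). Ccl11 had group means between 29.4 and 34.2 CPM in all 5 groups, and its log2 fold changes against naive ran from -0.11 to 0.12 with adjusted p of 0.625 to 0.983.

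Cxcl1, a neutrophil attractant, was at 6.25, 10.7, 6.69 and 15.2 CPM in naive, 11.7, 15.3, 37.8 and 39.6 CPM in week 3 Fas+/+ and 23.9, 25.3, 22.1 and 48.2 CPM in week 3 Fas-/- libraries. Only the Fas-/- libraries all lay above the naive ones. The log2 fold change was 1.42 (SE 0.44, adjusted p = 0.0158; exact permutation p = 0.0571) in Fas+/+ and 1.62 (SE 0.44, adjusted p = 0.0103; exact permutation p = 0.0286) in Fas-/- libraries. The call in Fas+/+ was lost without naive replicate 1 (1.24, adjusted p = 0.0544), without week 3 Fas+/+ replicate 3 (1.19, adjusted p = 0.0554) and without replicate 4 (1.13, adjusted p = 0.0609).

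Cxcl5, which acts on the same receptor, was close to 0 in naive libraries, at 0 to 0.26 CPM from 0 to 6 counts. It was at 0.147, 1.501, 2.84 and 1.93 CPM in week 3 Fas+/+ and 1.56, 1.71, 1.70 and 0.968 CPM in week 3 Fas-/- libraries. Replicate 1 of the Fas+/+ group stayed within the naive range, and the other 7 libraries lay above it. The fitted log2 fold change was 3.33 (SE 0.90, adjusted p = 0.0069; exact permutation p = 0.0857) in Fas+/+ and 3.26 (SE 0.89, adjusted p = 0.0107; exact permutation p = 0.0286) in Fas-/- libraries. With at most 62 counts in any library, its size is less firm than that of the other members.

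Cxcl12 rose from 203, 214, 215 and 202 CPM in naive libraries to 891, 723, 822 and 664 CPM in week 3 Fas+/+ and 456, 433, 372 and 1105 CPM in week 3 Fas-/- libraries. All 8 bleomycin libraries lay above all naive libraries. The log2 fold change was 1.89 (SE 0.28, adjusted p = 5.84e-05), or 3.71-fold, in Fas+/+ and 1.502 (SE 0.27, adjusted p = 0.000648), or 2.83-fold, in Fas-/- libraries, with an exact permutation p of 0.0286 for both.

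Cxcl12 moved with the endothelial markers. Their sum was 204, 545, 272 and 240 CPM in naive, 12397, 4369, 3686 and 3417 CPM in week 3 Fas+/+ and 1480, 832, 918 and 11026 CPM in week 3 Fas-/- libraries. At week 6 it was 625, 2444, 1452 and 921 CPM in Fas+/+ and 134, 3543, 574 and 386 CPM in Fas-/- libraries. The highest Cxcl12 value of each bleomycin group was in the library with the highest endothelial sum: replicate 1 at week 3 and 2 at week 6 of Fas+/+, and replicate 4 at week 3 and 2 at week 6 of Fas-/-. Across the 20 deviations from group means, the Pearson r of Cxcl12 with the endothelial sum was 0.851, with the lymphatic endothelial sum 0.768 and with the immune sum 0.748. Lymphatic markers (5 genes) summed to 8.98 to 21.4 CPM in naive libraries and to 251 to 393 and 91.6 to 533 CPM in Fas+/+ and Fas-/- libraries at week 3, and to 27.5 to 143 and 7.68 to 293 CPM at week 6. Immune markers (20 genes) summed to 16.97 to 22.6 CPM in naive libraries, with Nkg7 and Marco at 0, and in the same order to 232 to 462, 166 to 426, 54.0 to 303 and 29.6 to 147 CPM after bleomycin. Without the library with the most endothelial RNA of each bleomycin group (4 libraries, which are also those with the most Cxcl12 in their groups), the rise in Cxcl12 was called in all 4 comparisons with naive libraries, at 1.81 (adjusted p = 1.19e-08) and 0.998 (adjusted p = 5.61e-06) for Fas+/+ and Fas-/- at week 3. The week 3 Fas+/+ libraries left in this fit still had 3417 to 4369 CPM of endothelial markers, against 204 to 545 CPM in naive libraries. Leaving out the library with the most Cxcl12 also narrows the range of its group by itself. This fit therefore cannot decide the part of these cells in the bulk result, which was not tested.

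**Figure D2:**
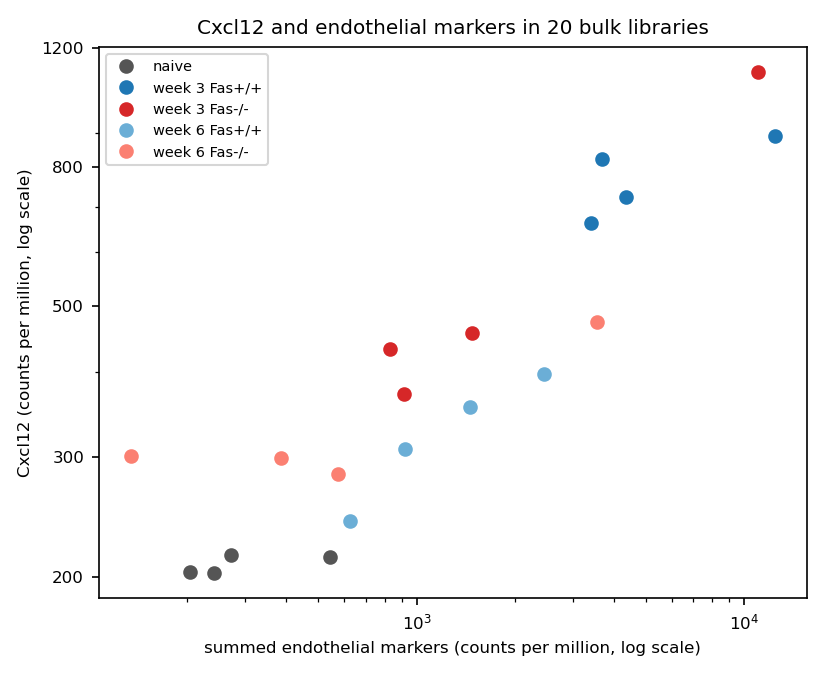
Cxcl12 (vertical axis, CPM, log scale) against the summed CPM of 12 endothelial markers (horizontal axis, log scale) in the 20 bulk libraries, coloured by group. The library at 1105 CPM of Cxcl12 is week 3 Fas-/- replicate 4, whose endothelial sum is 11026 CPM, and the other 3 libraries of its group lie at 372 to 456 CPM.

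Cxcl13 and Cxcl14 were not called at week 3. Cxcl13 was at 23.5, 29.8, 5.40 and 59.6 CPM in naive, 33.2, 25.8, 67.6 and 69.6 CPM in week 3 Fas+/+ and 20.9, 23.5, 16.8 and 5.76 CPM in week 3 Fas-/- libraries. Its naive libraries alone spanned most of that range, and the log2 fold changes were 0.73 (adjusted p = 0.414) and -0.82 (adjusted p = 0.381). Cxcl14 was at 380, 359, 367 and 421 CPM in naive, 142, 344, 497 and 408 CPM in week 3 Fas+/+ and 392, 399, 382 and 279 CPM in week 3 Fas-/- libraries. It spread most in the Fas+/+ group, with replicate 1 far below the rest, and its log2 fold changes were -0.14 (adjusted p = 0.685) and -0.07 (adjusted p = 0.85).

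At week 6 fewer members were called against naive than at week 3. In Fas+/+ libraries Ccl2 was called higher and no member lower, where 3.57% of all genes were called higher and 1.74% lower. In Fas-/- libraries Cxcl5 alone was called, where 3.66% of all genes were called higher and 2.81% lower. As above, Cxcl5 had enough counts to be tested only through bleomycin libraries. The member medians were 0.83 and 0.68 on the log2 scale, and those of all genes 0.00 and 0.01. The count in Fas+/+ depended on the fit: it was 4 by DESeq2 (where Ccl7, Cxcl1 and Cxcl5 also passed), 4 with the compared groups alone and 0 to 4 with 1 library left out, as set out for each gene below. In Fas-/- it was 3 with the compared groups alone and 0 with any 1 library left out.

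Ccl2 was at 4.92, 20.98, 34.2 and 15.6 CPM in week 6 Fas+/+ libraries and at 7.99, 5.99, 3.84 and 8.21 CPM in week 6 Fas-/- libraries. The Fas+/+ libraries all lay above the naive range of 2.63 to 3.85 CPM, while the lowest Fas-/- library lay within it. Its log2 fold change was 2.48 (SE 0.57, adjusted p = 0.015; exact permutation p = 0.0286) in Fas+/+ and 0.95 (adjusted p = 0.366) in Fas-/- libraries. The call in Fas+/+ was lost without naive replicate 1 (2.37, adjusted p = 0.0546) or without week 6 Fas+/+ replicate 3 (2.03, adjusted p = 0.0659). With the compared groups fitted alone, the change in Fas-/- libraries passed (0.95, adjusted p = 0.0466).

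Ccl7 was at 3.71, 10.5, 11.8 and 8.76 CPM in week 6 Fas+/+ and 5.06, 2.97, 3.67 and 5.26 CPM in week 6 Fas-/- libraries, and neither group passed against naive (1.48, adjusted p = 0.0876, and 0.45, adjusted p = 0.663). Cxcl1 was at 8.999, 24.002, 28.1 and 35.8 CPM in Fas+/+ and 21.6, 13.0, 13.8 and 17.9 CPM in Fas-/- libraries (1.31, adjusted p = 0.095, and 0.77, adjusted p = 0.337). For both genes week 6 Fas+/+ replicate 1 was the lowest of its group. Without that library Ccl7 (1.74, adjusted p = 0.0389), Cxcl1 (1.59, adjusted p = 0.0284) and Cxcl5 (3.30, adjusted p = 0.0191) passed in Fas+/+ mice. It was the lowest of its group for Cxcl5 too, and leaving it out raises the group means by itself. Ccl7 also passed in Fas+/+ mice with the compared groups fitted alone (1.49, adjusted p = 0.0198).

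Cxcl5 was at 0.0807, 1.09, 3.07 and 0.453 CPM in week 6 Fas+/+ and 1.72, 1.38, 0.96 and 1.57 CPM in week 6 Fas-/- libraries. All 4 Fas-/- libraries were above the naive range of 0 to 0.26 CPM, and replicate 1 of the Fas+/+ group was within it. Its log2 fold change was 3.18 (SE 0.90, adjusted p = 0.042; exact permutation p = 0.0286) in Fas-/- and 2.90 (adjusted p = 0.0701) in Fas+/+ libraries. The call in Fas-/- rests on all 8 libraries, since leaving out any one of them took the adjusted p to between 0.054 and 0.111.

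Cxcl12 at week 6 was at 242, 397, 355 and 308 CPM in Fas+/+ and 301, 475, 283 and 299 CPM in Fas-/- libraries. All were above the naive range of 202 to 215 CPM, yet the adjusted p was 0.194 for a log2 fold change of 0.64 and 0.136 for one of 0.70. With the compared groups fitted alone both passed (0.64, adjusted p = 0.0126, and 0.70, adjusted p = 0.0236). Fitted without the library with the most endothelial RNA of each bleomycin group, the same changes were 0.53 (adjusted p = 0.00583) and 0.49 (adjusted p = 0.0077). Those libraries also had the most Cxcl12 in their groups, so leaving them out narrows the range of each group by itself. Cxcl14 was at 281, 253, 253 and 251 CPM in week 6 Fas+/+ libraries, all below the naive range of 359 to 421 CPM (-0.56, adjusted p = 0.211). It was at 248, 267, 364 and 305 CPM in week 6 Fas-/- libraries, which overlapped the naive range (-0.37, adjusted p = 0.419). With the compared groups fitted alone, the fall of Cxcl14 in Fas+/+ mice passed (-0.56, adjusted p = 0.00133).

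Cxcl13 at week 6 was at 8.92, 67.0, 66.6 and 68.2 CPM in Fas+/+ and 15.7, 11.1, 9.43 and 45.8 CPM in Fas-/- libraries. Both groups overlapped the naive libraries (0.83, adjusted p = 0.554, and -0.53, adjusted p = 0.722). Ccl8 was at 1.98, 3.95, 3.77 and 2.32 CPM in Fas+/+ and 4.59, 5.38, 5.42 and 6.79 CPM in Fas-/- libraries (-0.20, adjusted p = 0.819, and 0.68, adjusted p = 0.281).

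**Figure D3:**
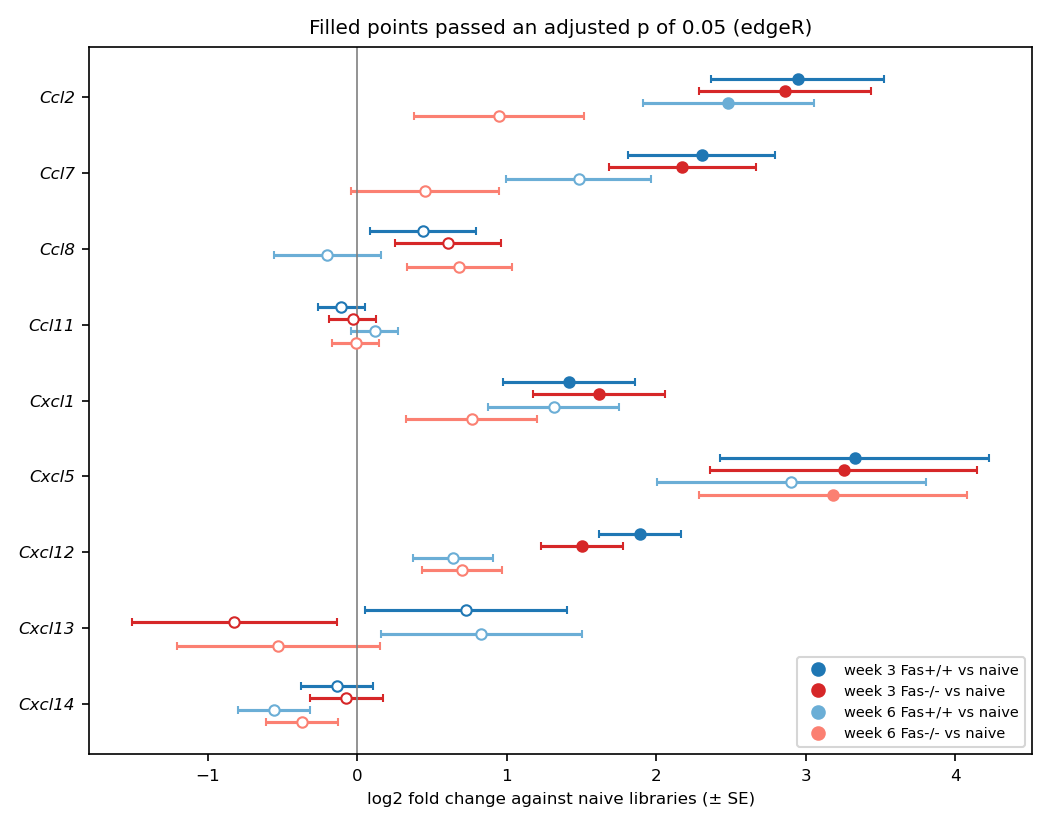
Log2 fold change against naive libraries with its standard error (horizontal axis) of the 9 tested chemokines (vertical axis) in the 4 bleomycin groups, where filled points passed an adjusted p of 0.05 in edgeR. Filled points are Ccl2 in 3 groups, Cxcl5 in 3 groups, and Ccl7, Cxcl1 and Cxcl12 in the 2 groups of week 3.

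The change from week 3 to week 6 was compared within each genotype, to follow the members while fibrosis resolves or persists. In Fas+/+ libraries Cxcl12 fell and no other member was called, where 12% of all genes were called higher and 10.9% lower at week 6. Its log2 fold change was -1.25 (SE 0.27, adjusted p = 0.00329; exact permutation p = 0.0286), and no week 6 library reached the week 3 values. Ccl2 (-0.47, adjusted p = 0.556) and Ccl7 (-0.82, adjusted p = 0.208) did not pass, nor did the other 6, from -0.64 (Ccl8) to 0.22 (Ccl11) with adjusted p of 0.204 to 0.927. Without week 3 Fas+/+ replicate 1, Ccl7 (-1.16, adjusted p = 0.0205), Ccl8 (-0.90, adjusted p = 0.0429) and Cxcl14 (-0.68, adjusted p = 0.00134) were also called lower. For each of these genes that library was the lowest of its group, so leaving it out raises the week 3 mean by itself. It also had the lowest fibroblast marker sum of all libraries. Across deviations from group means, the Pearson r with that sum was 0.781 for Ccl7, 0.697 for Ccl8 and 0.777 for Cxcl14. The part of this in their values was not tested.

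In Fas-/- libraries Ccl2 and Ccl7 fell from week 3 to week 6 and none of the others was called, where 4.48% of all genes were called higher and 4.54% lower. The log2 fold change was -1.91 for Ccl2 (SE 0.55, adjusted p = 0.0389) and -1.72 for Ccl7 (SE 0.48, adjusted p = 0.0342), and for both genes every week 6 library was below every week 3 library. These calls are close to the threshold. For Ccl2 the adjusted p was 0.0758, 0.0956 and 0.0616 without week 3 Fas-/- replicates 1, 2 and 3, and 0.0673, 0.0716, 0.121 and 0.0709 without week 6 Fas-/- replicates 1 to 4. For Ccl7 it was 0.0526 and 0.109 without week 3 replicates 1 and 2, and 0.0594, 0.0737, 0.101 and 0.0619 without week 6 replicates 1 to 4. Cxcl12 (-0.80, adjusted p = 0.0697) passed without week 3 Fas-/- replicate 3 (-0.95, adjusted p = 0.0381) or week 6 Fas-/- replicate 2 (-0.99, adjusted p = 0.036). The former had the least Cxcl12 of its group and the latter the most, so leaving out either widens the difference by itself. The other 6 ran from -0.85 (Cxcl1) to 0.29 (Cxcl13), with adjusted p of 0.225 to 0.963.

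The comparison of Fas-/- with Fas+/+ libraries asked whether the loss of Fas in Col1a1-expressing cells changed the members. No member was called at week 3, where 0.171% of all genes were called in either direction, and 1 of 9 members had an unadjusted p under 0.05, where 8.62% of all genes did. At week 6 none was called, where 0.0507% of all genes were, and 3 members had an unadjusted p under 0.05, where 8.07% of all genes did. DESeq2 also called no member at either time. The member medians were -0.07 and -0.13 and those of all genes 0.00.

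Cxcl13 was the member with the unadjusted p under 0.05 at week 3. Its Fas-/- libraries, at 5.76 to 23.5 CPM, lay below all Fas+/+ libraries, at 25.8 to 69.6 CPM (-1.55, SE 0.69, adjusted p = 0.541; exact permutation p = 0.0286). The same gene was at 9.43 to 45.8 CPM against 8.92 to 68.2 CPM at week 6 (-1.36, adjusted p = 0.667), where replicate 1 of the Fas+/+ group was the lowest of all. At week 6 the other 3 were Ccl2 (-1.53, SE 0.55, adjusted p = 0.385; exact permutation p = 0.114), Ccl7 (-1.03, SE 0.48, adjusted p = 0.6; exact permutation p = 0.0857) and Ccl8 (0.88, SE 0.36, adjusted p = 0.497; exact permutation p = 0.0286). Ccl8 was the one of these whose groups did not overlap, at 4.59 to 6.79 CPM in Fas-/- and 1.98 to 3.95 CPM in Fas+/+ libraries. For Ccl2 and Ccl7, week 6 Fas+/+ replicate 1 lay inside the Fas-/- range. The genotype differences of the members not given here or for Cxcl12 were within -0.13 (Ccl7) and 0.20 (Cxcl1) at week 3, with adjusted p of 0.921 to 0.989, and within -0.55 (Cxcl1) and 0.28 (Cxcl5) at week 6, with adjusted p of 0.883 to 0.995.

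For Cxcl12 the genotype difference depended on a single library. It was -0.39 (SE 0.27, adjusted p = 0.743) at week 3 and 0.06 (adjusted p = 0.997) at week 6. Without week 3 Fas-/- replicate 4, which had 11026 CPM of endothelial markers, Cxcl12 was lower in Fas-/- libraries at week 3 (-0.87, adjusted p = 0.0163). Without the library with the most endothelial RNA of each bleomycin group it was also called (-0.82, adjusted p = 0.00101), and so was the difference of the genotype effect between weeks (0.78, adjusted p = 0.0319). The libraries left out in these fits also had the most Cxcl12 in their groups and were picked with earlier results known. Leaving them out lowers the Cxcl12 means of their groups by itself, so these fits cannot decide whether Cxcl12 differs by genotype. With all libraries the interaction of genotype and week was called for no member, where 0.00634% of all genes were called, and no member had an unadjusted p under 0.05 (7.67% of all genes). It was -1.45 (SE 0.75, adjusted p = 0.701) for Ccl2 and 0.45 (SE 0.38, adjusted p = 0.884) for Cxcl12, and from -0.90 (Ccl7) to 0.72 (Ccl8) for the other 7, with adjusted p of 0.836 to 0.988, so the separate falls of these genes in one genotype are not shown to differ from the other.

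Ordered by group mean, Ccl2 and Ccl7 ran from week 3 Fas+/+ through week 3 Fas-/-, week 6 Fas+/+ and week 6 Fas-/- down to naive. Cxcl12 and Cxcl5 also began with week 3 Fas+/+ and ended with naive, but with week 6 Fas-/- above week 6 Fas+/+. Cxcl1 was highest in week 3 Fas-/-, Ccl8 in week 6 Fas-/-, Cxcl13 and Ccl11 in week 6 Fas+/+, and Cxcl14 in naive libraries. Neighbouring groups in these orders overlapped for every member except Cxcl12, whose week 6 Fas+/+ libraries all lay above the naive ones. The orders were taken from the same values, and the share of all genes with such a gap was not counted, so this is description only. Cxcl14 was lowest in week 6 Fas+/+ libraries.

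Across the 20 bulk libraries, each member had its own closest genes, given here as Pearson r of log2 CPM and as description only. Ccl7 (0.968), Sod2 (0.946) and Stx11 (0.946) were closest to Ccl2, while Ccl2, Serpina3n (0.956) and Sod2 (0.941) were closest to Ccl7. Sod2 encodes the mitochondrial superoxide dismutase. Tnfaip3 (0.903), an inhibitor of NF-kB signalling, Lcn2 (0.856) and Cdc42 (0.851) were closest to Cxcl1. Serpina3i (0.909), Cyp7b1 (0.906) and Casp4 (0.895) were closest to Cxcl5. Elk3 (0.99), Jak3 (0.988) and Ahr (0.981) were closest to Cxcl12. Cnmd (0.912), Cyp1b1 (0.904) and Pcdh15 (0.898) were closest to Cxcl13, and Creb3l1 (0.879), Slc35e1 (0.871) and Dpysl3 (0.855) to Cxcl14. The best values for Ccl8 (1110008P14Rik, 0.831) and Ccl11 (Zfp992, 0.718) were lower. Among member pairs, Ccl2 and Cxcl5 had an r of 0.786 over all libraries and 0.897 within groups, Ccl2 and Cxcl1 0.818 and 0.648, and Ccl2 and Cxcl12 0.569 and -0.099.

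Of 28 other chemokine ligands 15 had enough counts to be tested, and 11 were called higher and 2 lower at week 3 in Fas+/+, 11 and 1 at week 3 in Fas-/-, 6 and 0 at week 6 in Fas+/+, and 4 and 0 at week 6 in Fas-/- libraries, all against naive (for all genes, 22.1%, 17.2%, 3.57% and 3.66% were called higher, shares that also stand beside the lists below). Their median log2 fold changes were 2.94, 2.70, 1.83 and 0.88. Ligands near 0 in naive libraries could be tested only through the other groups, and how many were was not counted. Like the members, this list and those below were chosen with earlier results of these data known. Cx3cl1, the membrane-bound ligand of Cx3cr1, was higher by 2.94 (adjusted p = 9.14e-07), 2.70 (adjusted p = 4.25e-06), 2.02 (adjusted p = 0.000185) and 2.15 (adjusted p = 0.000179) in the same order. In single cells Cx3cl1 was highest in endothelial-like cells (33.85 CPM, against 9.48 CPM over all cells), followed by profibrotic fibroblast-like cells (19.06 CPM). The part of endothelial cells in its bulk values was not tested. Cxcl10, an interferon-induced ligand of Cxcr3, was higher at week 3 by 2.27 (adjusted p = 0.00358) in Fas+/+ and 3.09 (adjusted p = 0.000681) in Fas-/- libraries.

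Receptors of the members were few in these sorted cells. Of 18 chemokine receptors 3 were tested, and Cxcr4, the receptor of Cxcl12, was the one with the most counts. Its group means were 52.5 CPM in naive, 27.1 and 25.04 CPM in Fas+/+ and Fas-/- libraries at week 3, and 37.8 and 25.6 CPM at week 6. It fell by 0.95 (adjusted p = 0.00483) and 1.07 (adjusted p = 0.00348) on the log2 scale at week 3, and by 1.04 (adjusted p = 0.017) in Fas-/- libraries at week 6. In week 6 Fas+/+ libraries its log2 fold change was -0.47 (adjusted p = 0.292). In single cells Cxcr4 was highest in pericyte-like cells (279 CPM, against 12.7 CPM over all cells). These were 11.9% of the naive cells and 4.75% to 7.13% of the cells in the other libraries. The part of pericyte-like cells in its bulk values was not tested. Among 5 atypical receptors, which take up chemokines without signalling migration, Ackr2, a scavenger of inflammatory CC chemokines, was higher at week 3 by 3.66 (adjusted p = 0.00309) in Fas+/+ and 2.78 (adjusted p = 0.0191) in Fas-/- libraries. It was found in single cells mostly in lymphatic and blood endothelial-like cells, and in the same comparisons the endothelial markers had medians of 4.604 and 3.92 and the lymphatic markers of 4.66 and 4.02 on the log2 scale. Their part in the Ackr2 values was not tested. Ackr1 rose at week 3 in Fas+/+ libraries (1.39, adjusted p = 0.0139), and Ackr3, the scavenger of Cxcl12, had a log2 fold change of 0.78 there (adjusted p = 0.0865).

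Of 15 genes that carry or respond to NF-kB signals all were tested, and 11 were called higher at week 3 in Fas+/+, 11 at week 3 in Fas-/-, 6 at week 6 in Fas+/+ and 4 at week 6 in Fas-/- libraries, with medians of 0.82, 1.00, 0.58 and 0.45. Icam1, an adhesion molecule for leukocytes, was higher by 0.95 (adjusted p = 0.00205), 1.16 (adjusted p = 0.000738), 1.64 (adjusted p = 0.000199) and 0.76 (adjusted p = 0.0412). In single cells Icam1 was highest in epithelial-like cells (2520 CPM, against 155 CPM over all cells). Bulk epithelial markers (12 genes, none at 0 in any group) summed to 35.8 to 48.4 CPM in naive libraries, and in the same order to 139 to 403, 147 to 226, 163 to 625 and 78.1 to 133 CPM after bleomycin, and 10, 10, 11 and 4 of them were called higher. Their part in the Icam1 values was not tested. Nfkbie, an inhibitor that the pathway induces, was higher at week 3 by 1.56 (adjusted p = 0.000187) in Fas+/+ and 1.51 (adjusted p = 0.000396) in Fas-/- libraries. In single cells Nfkbie was highest in lymphatic endothelial-like cells (57.8 CPM, against 12.5 CPM over all cells), and their part in its bulk values was not tested. Of 16 receptors for cytokines that induce chemokines, 10 were higher and 1 lower at week 3 in Fas+/+ and 10 higher in Fas-/- libraries, followed by 2 and 6 at week 6. Il4ra, a chain of the receptors for interleukin-4 and interleukin-13, rose at week 3 by 1.59 (adjusted p = 5.25e-06) and 1.11 (adjusted p = 0.000247), and at week 6 in Fas-/- libraries by 0.68 (adjusted p = 0.0276). In single cells Il4ra was highest in endothelial-like cells (201 CPM, against 46.3 CPM over all cells), and their part in its bulk values was not tested.

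Of 12 genes of lymphoid stroma, the setting in which Cxcl13 and Ccl19 are best known, 11 were tested. At week 3, 3 were higher and 1 lower in Fas+/+ and 3 higher in Fas-/- libraries, and at week 6, 1 and 2 were higher. At week 3 these counts are close to the shares of all genes. Grem1, a bone morphogenetic protein antagonist, rose at week 3 by 6.31 (adjusted p = 7.09e-05) and 6.18 (adjusted p = 0.000161). Il7, a survival factor of lymphocytes, rose at week 3 by 1.27 (adjusted p = 0.00213) and 1.40 (adjusted p = 0.00151), and in Fas-/- libraries at week 6 by 1.47 (adjusted p = 0.00529). In single cells Il7 was highest in lymphatic endothelial-like cells (41.3 CPM, against 7.73 CPM over all cells), and their part in its bulk values was not tested. No gene of any of these lists was called between genotypes or in the interaction.

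The single-cell matrices held 13900 barcodes, of which 12059 were kept after filters on genes and mitochondrial UMIs (unique molecular identifiers, counted molecules): 603 naive, 2664 week 3 Fas+/+, 2608 week 3 Fas-/-, 3240 week 6 Fas+/+ and 2944 week 6 Fas-/- cells. Libraries shared barcodes. Of the kept cells, 543 barcodes stood in more than 1 library, and 959 of the 1502 cells with such a barcode were shallower copies, with a median of 6.02% of the UMIs of the deepest copy. These copies were 11 of the naive, 99 and 278 of the week 3 Fas+/+ and Fas-/-, and 166 and 405 of the week 6 Fas+/+ and Fas-/- cells. Without them, 49 of the 50 values of a member in a library stayed within their counting interval, and the other, Cxcl13 in the week 6 Fas-/- library, went from 102.1 to 98.3 CPM. With 1 library per condition there is no test between conditions, and the intervals below (95%, exact Poisson for CPM) cover counting error only.

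The cells fell into 21 clusters, formed without the members, the other listed genes or the markers, and 17 of these could be named from markers. Cluster 0, with 1889 cells, was left unnamed and was led by Saa3, Lcn2 and Mmp3, genes of acute inflammation and matrix breakdown. Lipofibroblast-like cells (2868) formed the largest class, followed by endothelial-like cells (1785) and Col14a1 fibroblast-like cells (1054). The endothelial-like cells were present although CD31+ cells had been sorted out. Ccl7, Ccl8, Ccl11 and Cxcl1 were highest in Col14a1 fibroblast-like cells and Cxcl14 in cluster 0. Cxcl12 was highest in endothelial-like, Cxcl13 in mesothelial-like and Ccl19 in vascular smooth muscle-like cells, with or without the highest cell of each class, so the name fibroblast chemokine does not describe where these 3 were highest. Ccl2 was highest in lymphatic endothelial-like cells, but on 1 cell, without which that class fell from 932 to 101 CPM, below Col14a1 fibroblast-like cells. Cxcl5 was highest in cluster 20, an unnamed cluster of 37 shallow cells led by the platelet genes Ppbp and Pf4, from 6 UMIs (97.8 CPM, 35.9 to 213).

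**Figure D4:**
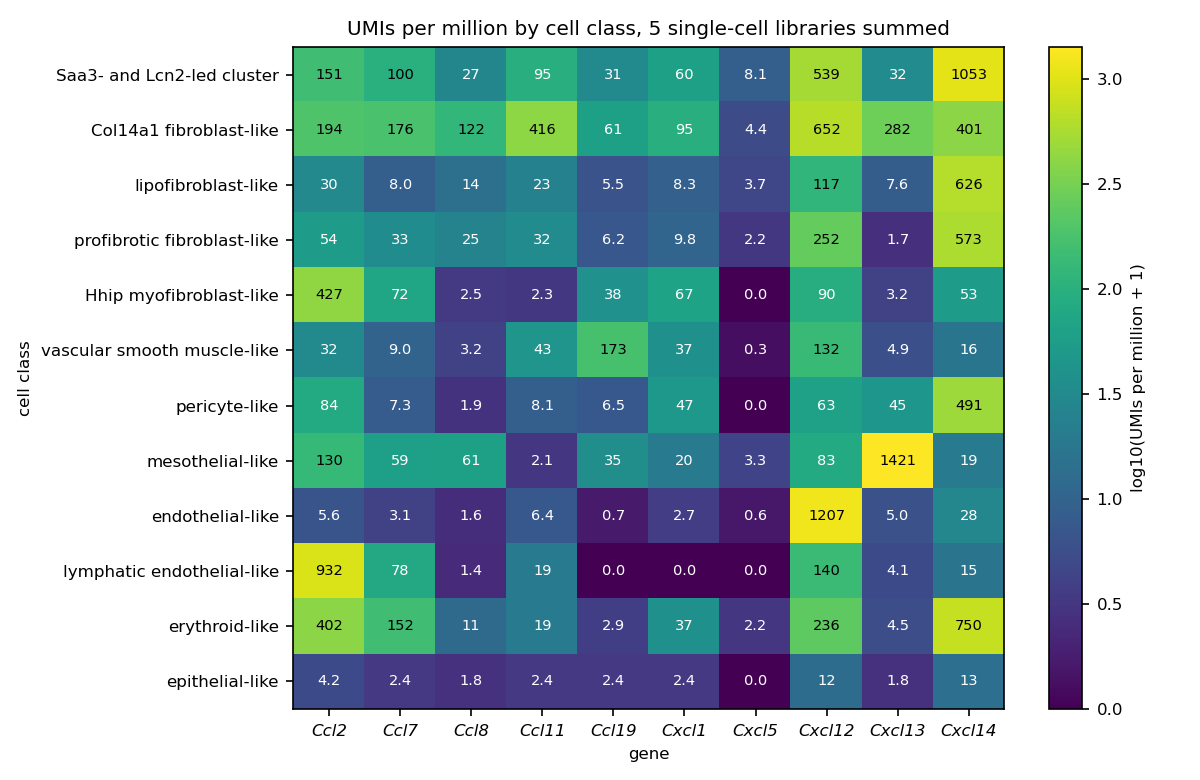
CPM of UMIs for each chemokine (columns) in each cell class (rows, without 3 unnamed clusters of 37 to 74 cells), with the 5 single-cell libraries summed and colour on the scale log10(CPM + 1). Brighter cells are higher: Cxcl13 peaks in mesothelial-like cells (1421 CPM) and Cxcl12 in endothelial-like cells (1207 CPM), and epithelial-like cells hold at most 13.1 CPM of any member.

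Ccl11 was highest in Col14a1 fibroblast-like cells. Col14a1 fibroblast-like cells held 416 CPM (404 to 427) and 53.5% of all its UMIs, and cluster 0 held 95.1 CPM (91.6 to 98.7) and 30.3%. Each cell was thinned to 3000 UMIs, so that depth is equal. After this, 42.9% of Col14a1 fibroblast-like and 13.5% of cluster 0 cells had a Ccl11 UMI (49.8% and 26.4% before). The share was 0.82% in epithelial-like cells, which are not assumed to lack the gene. Median depths before thinning were 10467.5 UMIs in Col14a1 fibroblast-like, 13549 in cluster 0 and 5074 in epithelial-like cells. Its level in the Col14a1 fibroblast-like cells of the 5 libraries ran from 358 to 466 CPM. Since Ccl11 was among the top 10 genes of the cluster that makes up this class, although not used to form it, its level there is a description.

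Ccl8 was also highest in Col14a1 fibroblast-like cells, at 122 CPM (116 to 129) and 41.0% of its UMIs. Its level there was 40.2 CPM in the naive library, 79.7 and 97.2 CPM at week 3 and 113 and 211 CPM at week 6 (Fas+/+ and Fas-/- in turn). Mesothelial-like cells came next at 61.1 CPM (55.9 to 66.5), from one of their 2 clusters, cluster 13 (91.9 CPM), rather than cluster 11 (6.51 CPM). After thinning, 17.7% of Col14a1 fibroblast-like cells had a Ccl8 UMI and 0.82% of epithelial-like cells.

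Ccl2 was spread over more classes and concentrated in few cells. Lymphatic endothelial-like cells held 932 CPM (863 to 1005), but 7.69% of these 91 cells had a UMI and 1 of them held 610 of the 677 UMIs. Hhip myofibroblast-like cells held 427 CPM (408 to 447) and erythroid-like cells 402 CPM (386 to 419). The erythroid-like cells had a median depth of 2108 UMIs, and the immunoglobulin genes Igkc, Igha and Jchain stood beside globin genes among the top 10 of their cluster. Col14a1 fibroblast-like cells held 194 CPM (186 to 202) and cluster 0 151 CPM. A single cell held 1182 Ccl2 UMIs, or 8.13% of the total. Without the highest cell of each class, erythroid-like cells held 325 CPM, Hhip myofibroblast-like cells 162 CPM, Col14a1 fibroblast-like cells 152.5 CPM, cluster 0 142 CPM and lymphatic endothelial-like cells 101 CPM. The week 6 Fas+/+ values went from 1272 to 332 CPM in Hhip myofibroblast-like and from 1502 to 148 CPM in lymphatic endothelial-like cells without theirs.

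The 100 cells with most Ccl2 held 83.5% of all Ccl2 UMIs, 55.6% of all Ccl7 UMIs and 34.4% of all Cxcl1 UMIs, beside 2.42% of all UMIs. None was naive, 19 were from week 3 Fas+/+, 7 from week 3 Fas-/-, 29 from week 6 Fas+/+ and 45 from week 6 Fas-/- mice. Of these cells 37 were in cluster 0, 14 were erythroid-like, 13 Col14a1 fibroblast-like and 10 mesothelial-like. The sort excluded doublets and cells with over 7500 genes were left out, but the 0.406% of cells that Scrublet marked were kept, a share too low to rely on, and the part of remaining doublets or of free RNA in these cells was not tested.

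Over whole libraries Ccl2 was at 5.16 CPM (3.46 to 7.42) in naive, 92.0 (88.4 to 95.7) in week 3 Fas+/+, 48.4 (45.1 to 51.8) in week 3 Fas-/-, 151 (147 to 156) in week 6 Fas+/+ and 176 CPM (172 to 181) in week 6 Fas-/- cells. The naive library was the lowest, as in bulk. The week 6 Fas-/- library was the highest, whereas the bulk week 6 Fas-/- libraries, at 3.84 to 8.21 CPM, were the lowest of the bleomycin groups. Within cluster 0 the order was the same, at 2.64, 118, 30.4, 190 and 222 CPM. In Col14a1 fibroblast-like cells the values were 29.3, 152, 17.8, 176 and 382 CPM.

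Ccl7 followed with 15.3, 46.0, 16.5, 64.5 and 107 CPM over the 5 libraries in the same order. Col14a1 fibroblast-like cells held 176 CPM (168 to 183) and cluster 0 100.5 CPM with 39.1% of the UMIs. In the former, its level was 93.9, 147, 18.5, 111 and 362 CPM, so the week 3 Fas-/- library was the lowest and the week 6 Fas-/- library the highest. Cxcl1 was at 15.3, 42.8, 19.4, 43.5 and 36.2 CPM over the libraries, and cluster 0 held 40.6% of its UMIs. Its level in cluster 0 was 7.93 CPM in naive, 25.97 and 25.7 CPM at week 3 and 94.8 and 82.2 CPM at week 6.

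Cxcl5 was as rare in single cells as in bulk, with 454 UMIs in 102 cells. Cluster 0 held 52.0% of these at 8.13 CPM (7.12 to 9.23). After thinning, 0.991% (0.588% to 1.56%) of cluster 0 cells had a UMI. The share was 1.30% in mesothelial-like, 0.832% in Col14a1 fibroblast-like and 0.191% (0.052% to 0.488%) in lipofibroblast-like cells, and 0 of 485 pericyte-like cells had one. These intervals cover counting error only. Epithelial-like cells had 0 of 122, which allows up to 2.46%, so they are too few to compare with these classes for Cxcl5.

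**Figure D5:**
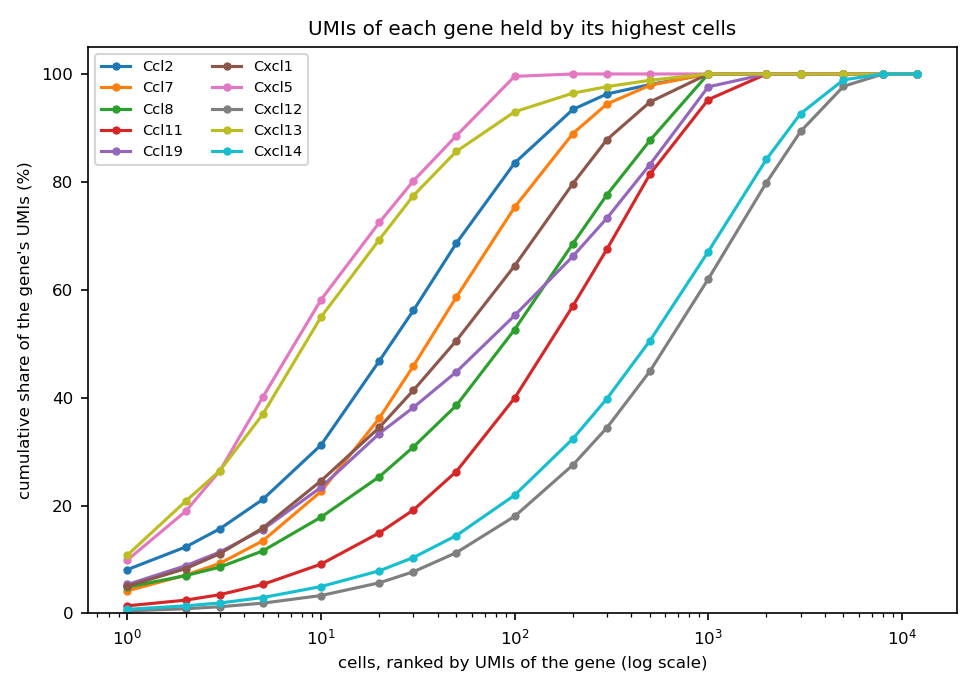
Cumulative share of the UMIs of each chemokine (vertical axis, percent) held by its highest cells (horizontal axis, number of cells ranked by UMIs, log scale) among 12059 cells. Cxcl5 and Cxcl13 reach 50% with 7 and 9 cells and Ccl2 with 23 cells, while Cxcl14 needs 488 and Cxcl12 622 cells.

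Before thinning, Cxcl12 was the member found in the most cells, with 45234 UMIs in 6038 cells. After thinning, 39.0% of all cells used had a Cxcl12 UMI and 40.2% a Cxcl14 UMI. Endothelial-like cells held 1207 CPM (1186 to 1229) of Cxcl12, Col14a1 fibroblast-like cells 652 CPM and cluster 0 539 CPM. Profibrotic fibroblast-like cells held 252 CPM and lipofibroblast-like cells 117 CPM. Cluster 0 cells, which were deeper (median 13549 against 4715 UMIs), held 34.6% of the UMIs and endothelial-like cells 26.8%. Thinned to equal depth, 72.5% of endothelial-like, 59.8% of Col14a1 fibroblast-like, 59.7% of cluster 0 and 17.5% of lipofibroblast-like cells had a UMI, against 2.46% of epithelial-like cells (75.1%, 72.9%, 85.0% and 29.2% of the first 4 before thinning).

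Within the unnamed cluster 0, Col14a1 fibroblast-like and lipofibroblast-like cells, Cxcl12 was lower in the naive library than in the others. In cluster 0 it was at 297 CPM in naive, 365 and 340 CPM at week 3 and 726 and 650 CPM at week 6. In Col14a1 fibroblast-like cells it was at 443, 524, 532, 712 and 850 CPM, and in lipofibroblast-like cells, whose clusters 1, 7 and 9 held 108, 191 and 142 CPM and mixed differently by library, at 31.4, 60.9, 112, 196 and 158 CPM. In these classes the week 6 libraries were thus the highest, while in bulk the week 3 libraries were. Endothelial-like cells numbered 10, 237, 182, 1122 and 234 in the 5 libraries, with 0.884%, 4.90%, 4.22%, 19.5% and 3.34% of the UMIs, and their own Cxcl12 level was 1591, 840, 1081, 1277 and 1277 CPM. Whole-library Cxcl12 was 163, 246, 249, 573 and 399 CPM, highest in week 6 Fas+/+, where endothelial-like cells took the largest share. The next highest, week 6 Fas-/-, had the smallest endothelial-like share of the bleomycin libraries (3.34%). The part of these cells in the whole-library values was not tested.

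Cxcl13 was a product of few cells. Mesothelial-like cells held 1421 CPM (1396 to 1447) and 72.0% of its 16818 UMIs, with 3871 CPM (3802 to 3941) in cluster 11 and 36.9 CPM in cluster 13. Cluster 11 had Cxcl13 among its top 10 genes, and 168 of its 372 cells were shallower copies of a shared barcode, without which the value was 3968 CPM. Col14a1 fibroblast-like cells held 282 CPM and 19.6% of the UMIs. In the 5 libraries mesothelial-like cells held 1810, 809, 472, 3039 and 1468 CPM, which without the highest cell of each became 104, 512, 374, 2165 and 468 CPM. Cluster 11 held 6, 84, 83, 84 and 115 of these cells and cluster 13 held 18, 66, 96, 55 and 79, so most of the naive and week 3 Fas-/- cells were in the cluster with little Cxcl13. The naive value rested on 1 cell, and the order of the other libraries was led by week 6 Fas+/+ with or without it. In bulk, mesothelial markers (8 genes) summed to 656 to 1252 CPM in naive, 324 to 609 and 467 to 534 CPM at week 3 and 695 to 954 and 692 to 1185 CPM at week 6, and their part in the bulk Cxcl13 values was not tested.

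Cxcl14 was abundant in several classes and low in others. Cluster 0 held 1053 CPM (1041 to 1065) and 48.0% of its 63636 UMIs, erythroid-like cells 750 CPM, lipofibroblast-like cells 626 CPM, profibrotic fibroblast-like cells 573 CPM, pericyte-like cells 491 CPM and Col14a1 fibroblast-like cells 401 CPM. Thinned to equal depth, 70.8% of cluster 0 and 62.0% of lipofibroblast-like cells had a UMI, against 4.92% of epithelial-like cells (90.2% and 68.4% of the first pair before thinning). In lipofibroblast-like cells it was at 870 CPM in the naive library and at 473 to 678 CPM in the others. This class joins clusters 1, 7 and 9, with 659, 823 and 190 CPM of Cxcl14, and cluster 7 held 31, 104, 297, 59 and 92 of its cells in the 5 libraries, with the most in week 3 Fas-/-. In pericyte-like cells Cxcl14 was at 928 CPM in the naive library and at 394 to 518 CPM in the others. In Col14a1 fibroblast-like cells the naive library was the lowest, at 249 CPM against 345 to 463 CPM, so the classes differed in where naive cells stood.

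Ccl19, which bulk counting all but missed, was plain in single cells. Vascular smooth muscle-like cells held 173 CPM (163 to 183) and 32.6% of its 3473 UMIs, and Col14a1 fibroblast-like cells 60.5 CPM and 20.4%. After thinning, 20.4% of vascular smooth muscle-like and 10.6% of Col14a1 fibroblast-like cells had a UMI (27.4% and 22.01% before), and 0 of 122 epithelial-like cells had one, which allows up to 2.46%. Over the 5 libraries it was at 33.3, 35.9, 24.5, 26.03 and 29.6 CPM. In bulk it had 0 to 6 counts per library, beside 3 to 27 counts for the pseudogene Ccl19-ps1. Whether reads shared with such near-identical copies were lost or split in the counting was not tested, and the bulk level is uncertain.

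Receptors of the members were sparse in the single cells too. Cxcr4 was highest in pericyte-like cells at 279 CPM, and Ackr3 in endothelial-like cells at 287 CPM, followed by Col14a1 fibroblast-like cells at 211 CPM. Ackr2 was highest in lymphatic endothelial-like cells (150.1 CPM) and endothelial-like cells (94.0 CPM). Ccr2, Cxcr2, Ccr7 and Cxcr5, the leukocyte receptors for Ccl2, Cxcl1 and Cxcl5, Ccl19, and Cxcl13, had 60, 19, 14 and 7 UMIs in all.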

How the data were processed

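Lin- lung cells of 5 conditions were profiled by bulk RNA-seq (4 libraries each) and by droplet single-cell RNA-seq (1 library each). For the bulk data skewer trimming and HISAT2 alignment to GRCm38 came before counting, and the authors deposited htseq-count read counts per Ensembl gene (versions not given in the sources used here). For single cells they deposited UMI counts per cell and gene. The DESeq2-normalized table that the authors also deposited was not used here.

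Bulk counts were fitted with edgeR 4.0.16 in R 4.3.3 (TMM, filterByExpr with a minimum count of 10, quasi-likelihood test over all 5 groups, Benjamini-Hochberg), and the fit was first tested on simulated counts with known changes. Exact permutation tests (two-sided, smallest p 0.0286) were run on log2 CPM with a prior count of 2. Alternatives were DESeq2 1.42.0, RLE factors, other filters, the replicate number as a block, the compared groups alone, each library left out, and the library with most endothelial RNA of each bleomycin group left out (4 together). CPM per kb used the exon length of GENCODE vM21. Replicate numbers did not pair the samples (median r of deviations 0.034, from -0.464 to 0.403).

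Cells were kept at 200 to 7500 genes and up to 20% mitochondrial UMIs, normalized with sctransform 0.4.2 and clustered in Seurat 5.3.0 (3000 features, 20 components, resolution 0.8). Levels are CPM of the summed UMIs, and Clopper-Pearson or Poisson intervals are at 95%. Shares of cells used 9213 cells thinned to 3000 UMIs, with 2846 shallower cells left out.

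The 10 members, the other gene lists and the markers were chosen with earlier results of these data known. The genes named are the members (Ccl19 had too few counts to be tested), and from each other list at most the 3 genes with the smallest adjusted p and the 3 with the highest mean CPM, and for each member the 3 genes with the highest Pearson r. Total counts per bulk library ran from 11819700 to 25189096, and single-cell libraries held 5615583 to 35004216 UMIs, with medians per cell of 5768 to 8896.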

Additional observations from a re-analysis of the deposited data

Results flagged for a closer look

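In 7 of the 50 sets of 4 bulk libraries (10 members in 5 groups), the highest or lowest library stood apart by Dixon's criterion for 4 values. Chance meets it in about 1 in 20 independent sets, but these sets share libraries, so that rate does not apply to their count. Two-library comparisons across genes set 2 libraries apart from their groups. Week 3 Fas+/+ replicate 1 had a chi-square per gene of 176 to 187 against the others, which had 8.37 to 19.6 among themselves. For week 3 Fas-/- replicate 4 it was 148 to 198, against 7.23 to 11.5. Replicate 4 of the week 3 Fas-/- libraries stood apart for Cxcl1 (48.2 CPM, the other 3 at 22.1 to 25.3 CPM), for Cxcl14 (279 CPM, the other 3 at 382 to 399 CPM) and for Cxcl5 (0.968 CPM, the other 3 at 1.56 to 1.71 CPM). Replicate 1 of the week 6 Fas+/+ libraries stood apart for Cxcl13 (8.92 CPM, the other 3 at 66.6 to 68.2 CPM) and for Cxcl14 (281 CPM, the other 3 at 251 to 253 CPM). Replicate 2 of the week 6 Fas-/- libraries stood apart for Cxcl12 (475 CPM, the other 3 at 283 to 301 CPM). Replicate 1 of the week 3 Fas-/- libraries had Ccl19 at 0.323 CPM, with the other 3 at 0.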

How the results depend on the processing

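The number of members called stayed within 1.5 times the count with all libraries under 54 of 63 alternatives and moved under 9. Against naive at week 6 in Fas+/+, 1 member was called, and 4 with the compared groups alone, 4 by DESeq2 and 5 without the library with most endothelial RNA of each bleomycin group (4 libraries). Against naive at week 6 in Fas-/-, the count of 1 became 3 with the compared groups alone, 0 with no filter and 2 without the 4 libraries. Without those 4, it went from 1 to 4 for week 6 against week 3 in Fas+/+, from 0 to 1 for genotype at week 3 and from 0 to 1 for the interaction. Leaving out 1 library at a time gave 4 to 5 and 5 to 5 members called at week 3 against naive (Fas+/+, Fas-/-), 0 to 4 and 0 to 0 at week 6 against naive, 1 to 4 and 0 to 2 from week 3 to week 6, 0 to 1 and 0 to 0 between genotypes at weeks 3 and 6, and 0 to 0 for the interaction. RLE factors shifted no library by more than 0.0133 on the log2 scale against TMM, and the 4 libraries were picked with earlier results known. The cause of these moves was not tested.

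The fit with the replicate number as a block left the counts at 5, 5, 1, 1, 1, 2, 0, 0 and 0. The pairs of same-numbered libraries did not deviate together (14 of 40 had an r over 0.1 and 12 one under -0.1). Under the block 6 changes that were not called turned sign: Cxcl13 to -0.034 and Cxcl5 to 0.014 from week 3 to week 6 in Fas-/-, Cxcl5 to 0.13, Ccl7 to 0.063 and Ccl2 to 0.13 between genotypes at week 3, and Cxcl13 to -0.096 in the interaction. Without the 4 libraries 8 turned sign: Cxcl14 to 0.12 (Fas+/+) and 0.024 (Fas-/-) at week 3 and Ccl11 to 0.056 (Fas-/-) at week 6 against naive, Cxcl13 to -0.18 (Fas+/+) and Ccl8 to -0.046 (Fas-/-) from week 3 to week 6, and between genotypes Cxcl14 to -0.097 and Cxcl1 to -0.38 at week 3 and Cxcl12 to -0.037 at week 6.

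Single left-out libraries turned the sign of 51 of 720 log2 fold changes, none of them called. Their ranges follow. In week 3 Fas+/+ against naive Ccl11 -0.27 to 0.015 and Cxcl14 -0.36 to 0.12. In week 3 Fas-/- against naive Ccl11 -0.19 to 0.091 and Cxcl14 -0.13 to 0.025. In week 6 Fas+/+ against naive Ccl11 -0.033 to 0.24. In week 6 Fas-/- against naive Ccl11 -0.16 to 0.11 and Cxcl13 -1.29 to 0.066. In week 6 against week 3 in Fas+/+ Cxcl1 -0.35 to 0.18 and Cxcl13 -0.11 to 0.46. In week 6 against week 3 in Fas-/- Ccl11 -0.085 to 0.10, Ccl8 -0.063 to 0.21, Cxcl13 -0.47 to 0.54 and Cxcl5 -0.23 to 0.078. In Fas-/- against Fas+/+ at week 3 Ccl11 -0.0023 to 0.19, Ccl2 -0.44 to 0.27, Ccl7 -0.47 to 0.28, Ccl8 -0.094 to 0.37, Cxcl1 -0.13 to 0.49, Cxcl14 -0.20 to 0.29 and Cxcl5 -0.47 to 0.32. In Fas-/- against Fas+/+ at week 6 Cxcl12 -0.15 to 0.17 and Cxcl5 -0.12 to 1.37. In the interaction Cxcl13 -0.58 to 0.42, Cxcl14 -0.10 to 0.39 and Cxcl5 -0.052 to 1.45. Of the 200 single-cell library values under other cell filters, 171 stayed within their counting interval. With at most 10% mitochondrial UMIs 38 of 50 did and 12 moved, and with no filter 34 of 50 did and 16 moved. All 50 stayed without the cells that Scrublet marked, a share too low to rely on. Without shallower copies of shared barcodes 49 of 50 stayed. Depth limits Ccl19 in bulk (0 to 6 counts) and Cxcl5 (0 to 62 counts).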
